A study of Danio rerio with 6 samples.

Results

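The keratin genes of the zebrafish skin described here are 10 of the 14315 genes that could be paired with a transcript in the deposited counts. The genes are cyt1, cyt1l, krt4, krt5, krt8, krt15, krt17, krt91, krt92 and krt94, each with 1 RefSeq transcript, and all 10 passed the filter on low counts. They were selected on measured values: cyt1l (NM_001082882) had a higher count in mutants than in wild types in these same libraries, and the others were added to see whether keratins of the skin shared the difference. The contrast of genotypes is therefore given for the 10 genes as a description, with no test read for them, and tests are kept for genes outside the list. The 8 lists of other genes were also chosen with earlier results of these data known, and their tests carry that limit. RNA was taken from embryos at 72 hpf, without the tail, which had been cut off for genotyping. The hnrnpul1/1l mutants were double homozygotes, in 3 pools of 8 embryos, and the wild types were 3 pools of 8 embryos. The study's Results call the mutants zygotic mutants for hnrnpul1 whose mothers also lacked hnrnpul1l. They take the wild types from an incross of hnrnpul1l heterozygotes, while its Methods call them wild-type siblings. Parentage may thus differ between the groups along with genotype. The alleles named as the rule for the study's mutants are the insertions hnrnpul1 ca54 and hnrnpul1l ca52. The embryos of both groups were raised in E3 medium, which in this study held methylene blue. The study added phenylthiourea to block pigment where required, and whether these embryos received it is not stated.

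Keratins are the intermediate filament proteins of epithelial cells. A filament is built from pairs of a type I (acidic) and a type II (basic) keratin, so members of both types are made in each epithelial cell. The skin of the zebrafish embryo has a superficial layer, the periderm, over a basal layer that rests on the basement membrane. cyt1 and krt4 are widely used as markers of the superficial layer, krt5 of the epidermis more generally, and krt8 with its type I partner krt18 is known from simple epithelia.

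Total counts were 40891309 to 62580215 in the mutant pools and 52250779 to 61266049 in the wild-type pools. The libraries hold all tissues of the trimmed embryo. More skin cells and more keratin RNA per cell cannot be told apart in them. Levels are given as CPM, the usual scaling of counts to the size of a library, here with edgeR's TMM factors. CPM is not scaled for transcript length, so levels are compared between pools and not between genes. The targeted gene hnrnpul1 had 47.7, 45.7 and 22.1 CPM in the mutant pools, against 127, 122 and 118 CPM in the wild-type pools. hnrnpul1l was not analysed here. Of the 13553 transcripts tested between the genotypes, edgeR's quasi-likelihood test called 0 (0%) at an adjusted p of 0.05. Before adjustment, at a p of 0.05, 566 transcripts were higher (4.18%) and 625 were lower (4.61%) in mutants. DESeq2, as another tool, called 202 of 13813 transcripts (1.46%), 90 of them higher in mutants (0.652%). These 90 included cyt1l, cyt1 and krt17. Nothing is read from that, as the keratins described were selected with their values known.

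The difference seen for cyt1l was shared by some of the other keratins, in unequal size. The log2 fold change of mutants over wild types was 3.10 for cyt1l (standard error 0.59), 2.38 for cyt1 (0.48), 2.05 for krt17 (0.56) and 1.59 for krt91 (0.51). It was 1.23 for krt4 (0.38), 1.02 for krt5 (0.47) and 0.97 for krt15 (0.44). For krt8, krt94 and krt92 it was 0.44 (0.36), 0.28 (0.25) and -0.11 (0.50). Of the 10 genes 9 were above 0, where 49.1% of all transcripts tested were, and 6 were above 1, where 5.28% of all transcripts were. The median of the 10 was 1.13, and 1.02 without cyt1l, beside -0.01 for all transcripts tested. Without mutant pool 3 the median of the 10 was 0.74. For 5 of the 10 genes (cyt1l, cyt1, krt17, krt91 and krt4) every mutant pool lay above every wild-type pool, a pattern found for 7.71% of all transcripts tested. The opposite pattern held for 0 of the 10 genes and for 9.08% of all transcripts. Since the genes were selected with these values known, nothing is read from these counts. By size of the log2 fold change, cyt1l ranked 43 and cyt1 ranked 101 among the 13553 transcripts, while krt92 ranked 7812. The study's own list of changed genes, from a quantification with VAST-TOOLS, also has cyt1l as higher in mutants. The log2 fold change of cyt1l in that list is smaller than the 3.10 found here. No entry of that list is named cyt1, and the reason was not tested.

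**Figure D1:**
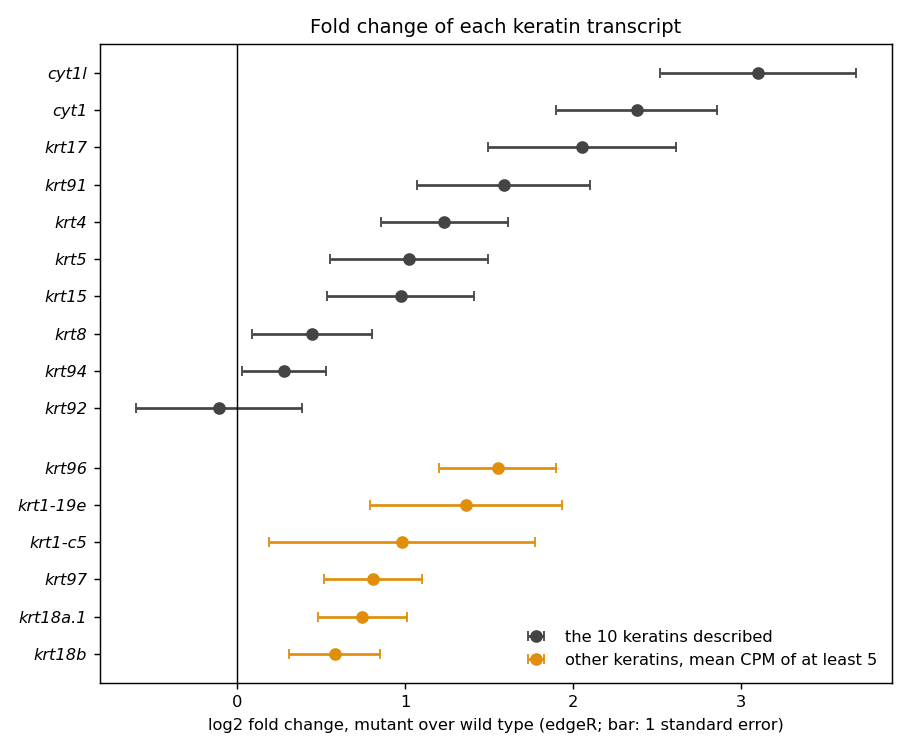
Log2 fold change of mutants over wild types for each keratin transcript, with the standard error of edgeR's fit as the bar (3 pools per genotype). The 10 keratins described are in grey, from 3.10 for cyt1l at the top to -0.11 for krt92, and the other keratins with a mean CPM of at least 5 are in orange, from 1.55 for krt96 to 0.58 for krt18b.

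A run of 5 of the genes stands side by side in the RefSeq gene order, as krt92, cyt1l, cyt1, krt17 and krt91, with no other protein-coding gene between them. The fold changes of these neighbours spanned the whole range of the list. cyt1l, a copy of the type I keratin gene cyt1, had 2040, 1649 and 3394 CPM in the mutant pools, against 522, 115 and 189 CPM in the wild-type pools. The lowest mutant pool was thus more than 3 times the highest wild-type pool, and wild-type pool 1 stood well above the other wild types. With each library left out in turn its log2 fold change lay between 2.73 and 3.96, the highest value being without wild-type pool 1.

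cyt1, a type I keratin of the superficial layer, had 1896, 1798 and 4585 CPM in the mutant pools, against 644, 281 and 667 CPM in the wild-type pools. Its groups did not overlap either, and mutant pool 3 was 2.48 times the mean of the other mutant pools. The log2 fold change of cyt1 was 1.79 without mutant pool 3 and 2.07 to 2.65 without any other library. For krt17, a type I keratin, the values were 91.1, 93.7 and 313 CPM in mutants and 39.4, 22.8 and 57.7 CPM in wild types. The groups were separate, but mutant pool 3 carried much of the difference. Without mutant pool 3 the log2 fold change of krt17 was 1.20 in place of 2.05. krt91 had 702, 557 and 1414 CPM in the mutant pools and 258, 139 and 493 CPM in the wild-type pools. The lowest mutant pool was close above the highest wild-type pool, and the log2 fold change was 1.07 without mutant pool 3 and 2.17 without wild-type pool 3.

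krt92, the next gene to cyt1l on its other side, had 29.5, 18.2 and 77.8 CPM in the mutant pools, against 51.0, 35.4 and 49.0 CPM in the wild-type pools. Mutant pools 1 and 2 lay below every wild-type pool and mutant pool 3 above them, so the mutant pools did not share a direction. The log2 fold change of krt92 was -0.92 without mutant pool 3, 0.14 without mutant pool 1 and 0.30 without mutant pool 2.

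**Figure D2:**
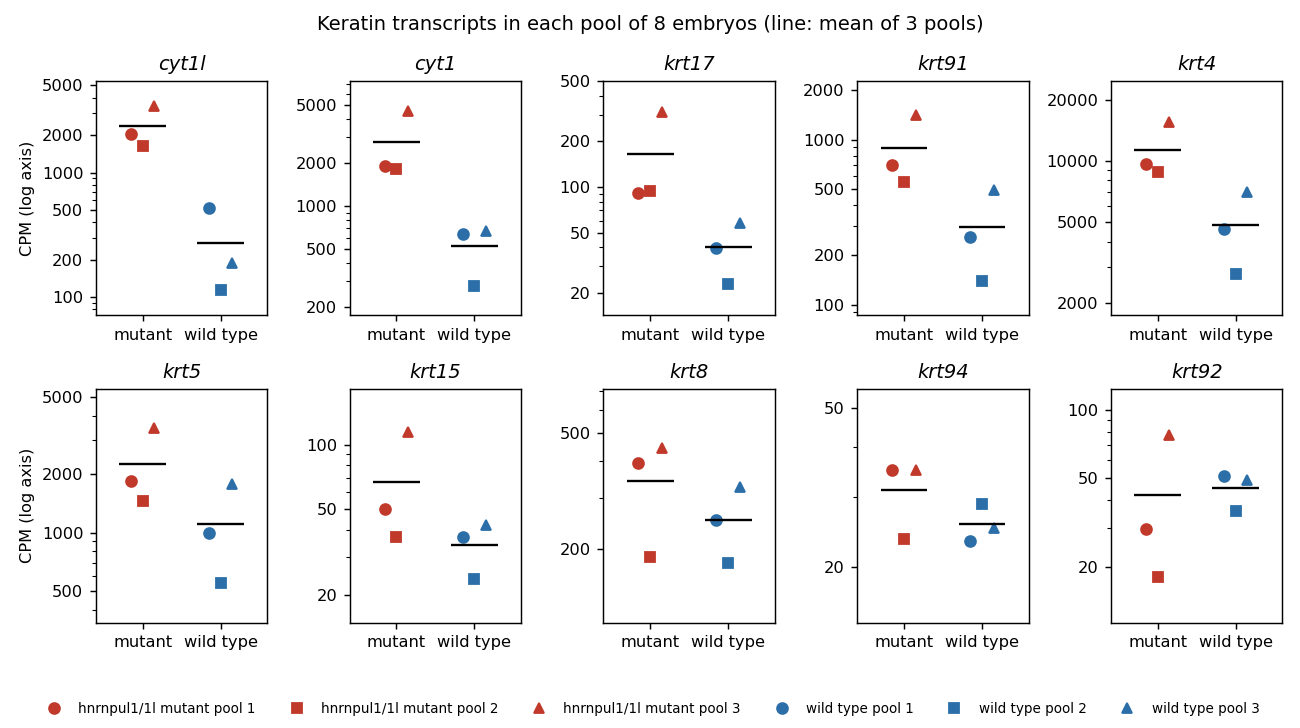
CPM of the 10 keratin transcripts in each pool of 8 embryos, mutants at left and wild types at right in each panel, on log axes whose range differs between panels. The line is the mean of 3 pools, and the marker shape gives the pool number. The groups do not overlap for cyt1l, cyt1, krt17, krt91 and krt4, and mutant pool 3 is the highest mutant pool for 9 of the 10 genes.

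The neighbours are related in sequence, and an estimated count can divide reads between such copies. Of the counts below 100000, which are deposited with enough digits to show it, those of cyt1l and cyt1 had a fractional part in 4 of 4 libraries and those of krt17, krt91 and krt92 in 6 of 6. The counts of krt15 and krt94 were whole numbers in 6 of 6 libraries. The sum over the 5 neighbours does not depend on how reads were divided among them. It was 4759, 4116 and 9784 CPM in the mutant pools and 1515, 593 and 1455 CPM in the wild-type pools, with means of 6220 ± 3103 CPM in mutants and 1188 ± 516 CPM in wild types (SD, n = 3 each), a ratio of 5.24. cyt1 and cyt1l together had 3936, 3447 and 7979 CPM in mutants, against 1166, 396 and 855 CPM in wild types. Both sums were separate between the genotypes. Reads divided with keratins outside a sum could still change it, which was not tested.

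The make-up of that sum also differed between the pools. cyt1l took 42.9%, 40.1% and 34.7% of the counts of the 5 neighbours in the mutant pools, against 34.4%, 19.4% and 13.0% in the wild-type pools. The groups were separate, but the highest wild-type share was almost as large as the lowest mutant share. cyt1 took 39.8%, 43.7% and 46.9% in mutants and 42.5%, 47.3% and 45.8% in wild types, which overlap. The share of krt91 was 14.8%, 13.5% and 14.5% in mutants, against 17.1%, 23.4% and 33.9% in wild types. krt92 took 0.620%, 0.442% and 0.795% in mutants and 3.37%, 5.98% and 3.37% in wild types. The shares of krt91 and krt92 were lower in every mutant pool than in any wild-type pool. The counts of cyt1l per count of cyt1 were 1.08, 0.917 and 0.740 in mutants and 0.810, 0.410 and 0.283 in wild types, so that wild-type pool 1 lay above mutant pool 3. These shares depend on how the reads of related copies were assigned, and the part this played was not tested. Because cyt1l was selected for its higher counts in these mutants, nothing is read from its larger share. The shares divide the same sum, so a lower share can go with a higher level, as for krt91.

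**Figure D3:**
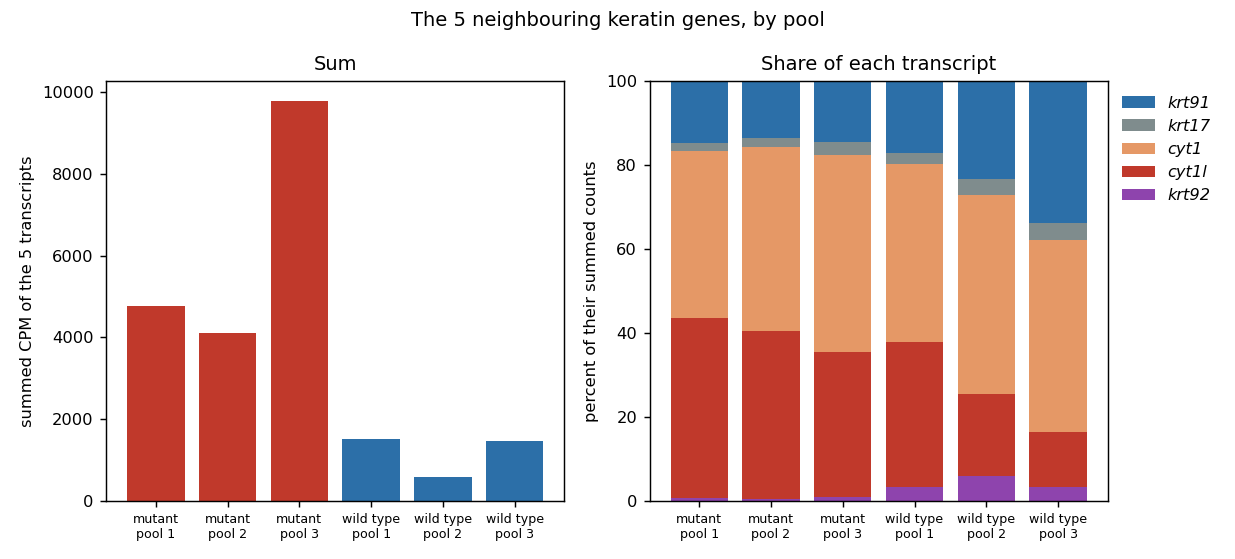
The 5 neighbouring keratin genes in each pool, mutants at left. The left panel gives their summed CPM, from 4116 to 9784 in mutants and from 593 to 1515 in wild types, and the right panel gives the percent of their summed counts held by each transcript, with cyt1l at 34.7% to 42.9% in mutants and 13.0% to 34.4% in wild types.

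Among the type II keratins, krt4, the marker of the superficial layer, had 9644, 8784 and 15458 CPM in the mutant pools, against 4609, 2775 and 7040 CPM in the wild-type pools. Its lowest mutant pool exceeded its highest wild-type pool, and the log2 fold change was between 0.93, without mutant pool 3, and 1.61, without wild-type pool 3. krt4 alone made up 0.917%, 0.801% and 1.57% of all counts in mutants, against 0.469%, 0.283% and 0.769% in wild types. All 10 keratins together held 1.59%, 1.33% and 2.97% of the counts in mutants and 0.756%, 0.423% and 1.17% in wild types. Leaving cyt1l out gave 1.40%, 1.18% and 2.63% in mutants, against 0.703%, 0.412% and 1.15% in wild types, so the groups stayed separate without it. Most of that remaining sum was krt4 in every pool, while krt5, krt8, krt15, krt92 and krt94 each overlapped between the genotypes.

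krt5 had 1841, 1463 and 3451 CPM in the mutant pools and 998, 549 and 1779 CPM in the wild-type pools. Wild-type pool 3 lay within the mutant range. The log2 fold change was 0.56 without mutant pool 3 and 1.54 without wild-type pool 3. krt8, the type II keratin of simple epithelia, had 395, 188 and 445 CPM in mutants, against 251, 178 and 326 CPM in wild types. Mutant pool 2 lay within the wild-type range, and the means of 343 ± 136 CPM in mutants and 252 ± 73.9 CPM in wild types (SD, n = 3 each) differed by less than the mutant SD.

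The remaining genes, krt15 and krt94, lie apart from the 5 neighbours, near krt93, krt98 and krt99. krt15, a type I keratin, had 50.4, 36.9 and 114 CPM in the mutant pools, against 37.0, 23.7 and 42.0 CPM in the wild-type pools. Mutant pool 2 was level with wild-type pool 1, and without mutant pool 3 the log2 fold change was 0.35 in place of 0.97. krt94 had 35.0, 23.6 and 34.9 CPM in mutants and 23.3, 28.8 and 25.1 CPM in wild types. Mutant pool 2 lay within the wild-type range, while mutant pools 1 and 3 lay above every wild type.

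Keratins outside the list were tested in the same fit. Another 10 keratin genes had a transcript, and 8 passed the filter on low counts. All 8 had a positive log2 fold change (49.1% of all transcripts did), with a median of 0.89. Of the 8, 0 were called by edgeR (smallest adjusted p = 0.354). In 2 of the 8 genes no wild-type pool reached the mutant pools, as in 7.71% of all transcripts, and 4 were among the transcripts that were higher before adjustment, as were 4.18% of all. Without mutant pool 3 the median of the 8 was 0.59. krt96 had 11.0, 13.1 and 12.2 CPM in the mutant pools, against 5.08, 3.15 and 4.18 CPM in the wild-type pools. Its log2 fold change was 1.55, with a standard error of 0.35 (edgeR, adjusted p = 0.354). It was the only keratin of the 8 that DESeq2 called, where 0.652% of all transcripts were called as higher. krt97 had 44.5, 43.2 and 62.7 CPM in mutants and 26.8, 20.7 and 38.3 CPM in wild types, and its log2 fold change came to 0.81 ± 0.29 (SE, edgeR, adjusted p = 0.517). krt96 and krt97 were the genes of the 8 whose groups did not overlap. The counts of both had a fractional part in 6 of 6 libraries, as those of krt17, krt91 and krt92 did. The part played by reads divided between related copies was not tested.

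krt1-19e, also known as krtt1c19e and used as a marker of basal keratinocytes, had 1095, 793 and 2622 CPM in the mutant pools, against 453, 290 and 1013 CPM in the wild-type pools. It is the gene on the far side of krt92 from cyt1l. The groups overlapped, with a log2 fold change of 1.36 ± 0.57 (SE, edgeR, adjusted p = 0.555). The partner of krt8, krt18a.1, had 252, 147 and 276 CPM in mutants and 127, 126 and 151 CPM in wild types. The log2 difference was 0.74 ± 0.26 for krt18a.1 (SE, edgeR, adjusted p = 0.502) and 0.58 ± 0.27 for the related krt18b (SE, edgeR, adjusted p = 0.594). The counts of krt8 per count of krt18a.1 were 1.57, 1.28 and 1.61 in mutants and 1.98, 1.42 and 2.16 in wild types, which overlap.

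Genes of the barrier, desmosome and basal lists, known from the skin but no keratins, were also higher in most cases. The mucous and secretory list, given under the other observations, had a median of 0.06. These lists, and the ionocyte list below, were chosen with earlier results of these data known. Of 32 periderm and skin barrier genes tested, 30 had a positive log2 fold change (49.1% of all transcripts did), with a median of 0.87. Before adjustment 6 of the 32 were among the higher transcripts (4.18% of all). At a mean CPM of at least 5 the largest differences were those of anxa1c, an annexin (log2 fold change 1.97, standard error 0.51, adjusted p = 0.407 from edgeR), icn2, an S100-type calcium-binding protein gene (1.63, 0.39 and adjusted p = 0.388 from edgeR), and the claudin gene cldne (1.39, 0.58 and adjusted p = 0.559 from edgeR). Of 8 desmosome and plakin genes 7 were positive (49.1% of all transcripts), with a median of 0.60. The plakophilin gene pkp3a had 1.21 (standard error 0.38), the envoplakin gene evpla 1.11 (0.54) and the periplakin gene ppl 0.84 (0.40). Of 15 genes of basal keratinocytes and the basement membrane 12 were positive (49.1% of all transcripts), with a median of 0.55. The laminin genes lamb1a and lama5 had 0.78 (0.46) and 0.72 (0.29). The claudin gene cldni had 0.70 (0.76). No gene of these lists was called in edgeR, where 0% of all transcripts were, while DESeq2 called anxa1c, icn2 and the plakoglobin gene jupa as higher in mutants (0.652% of all transcripts). Without mutant pool 3 the medians of the barrier, desmosome and basal lists were 0.42, 0.32 and 0.26. Without wild-type pool 2 those of the barrier and basal lists were 0.55 and 0.34, and without wild-type pool 3 that of the desmosome list was 1.09.

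The list for ionocytes, the ion-transporting cells that also lie in the skin, had genes in both directions and a median slightly below 0. Whether ionocytes as cells differed between the genotypes was not tested. Of 14 ionocyte-list genes tested 6 were positive (49.1% of all transcripts) and 8 negative, with a median of -0.17. Before adjustment 3 were among the lower transcripts (4.61% of all) and 1 among the higher (4.18% of all), and in 3 every mutant pool was under all wild types (9.08% of all). The median was -0.40 without mutant pool 3, -0.38 without wild-type pool 2, -0.08 without wild-type pool 1 and -0.06 without mutant pool 1. At a mean CPM of at least 5 the largest differences were those of ndrg1a (-1.39, standard error 0.21, adjusted p = 0.328 from edgeR), the sodium pump gene atp1a1a.3 (1.07, 0.36 and adjusted p = 0.475) and the proton pump gene atp6v1aa (-0.94, 0.21 and adjusted p = 0.354). DESeq2 called ndrg1a and atp6v1aa as lower in mutants (among 1.46% of all transcripts called in either direction). Genes such as ndrg1a and atp6v1aa are also active in other tissues. Of the defining ionocyte markers, 4 of 5 had a transcript, with a summed level of 9.27 to 19.5 CPM in mutants and 7.39 to 17.7 CPM in wild types, and foxi3b was at 0 in some libraries. The summed level of the 4 of 6 periderm markers with a transcript was 201 to 417 CPM in mutants and 70.4 to 233 CPM in wild types. For the 5 of 6 basal markers with a transcript, krt1-19e among them, it was 878 to 2766 CPM in mutants and 331 to 1105 CPM in wild types. Most of that basal sum was krt1-19e itself, with 793 to 2622 CPM in mutants and 290 to 1013 CPM in wild types. Both skin marker sums overlapped between the genotypes. Summed markers of skeletal muscle, which is no part of the skin, were 7041 to 9854 CPM in mutants and 4771 to 8367 CPM in wild types. Those of neurons were 2521 to 5625 CPM in mutants and 2904 to 4595 CPM in wild types, and those of the lens were 317 to 893 CPM in mutants and 231 to 684 CPM in wild types. Each of these sums overlapped between the genotypes. How far the amount of skin in a pool contributed to the keratin values was not tested.

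**Figure D4:**
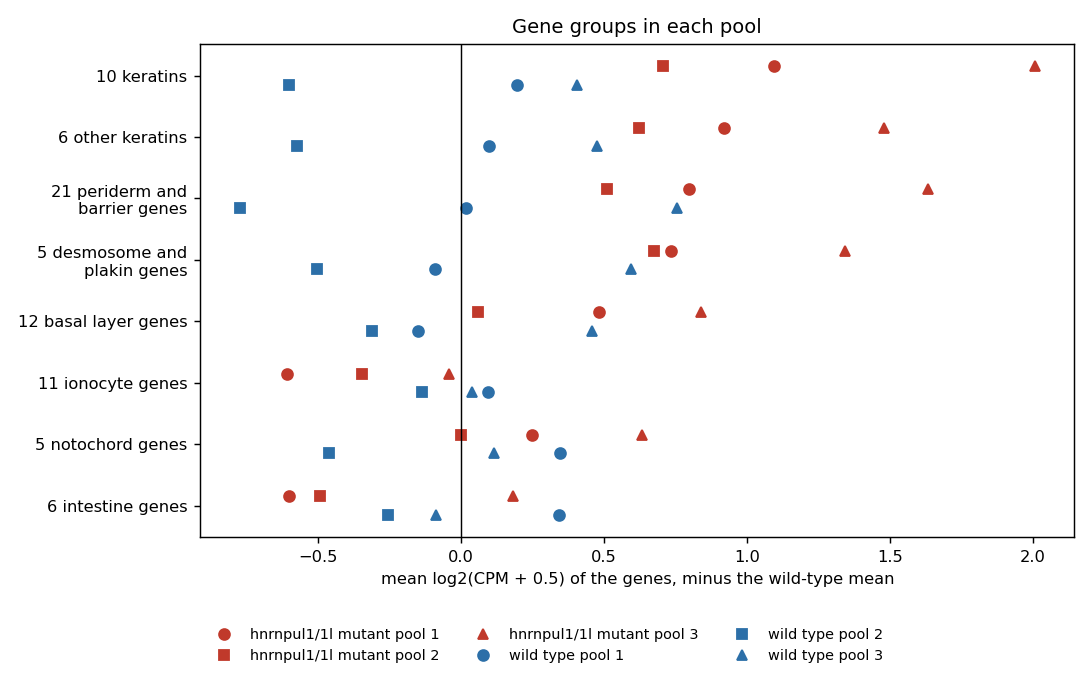
Mean log2(CPM + 0.5) of each gene group in each pool, as the difference from the mean of the wild-type pools, with mutants above wild types in each row and genes of a mean CPM of at least 5 (all 10 keratins are above it). The 10 keratins lie at 1.10, 0.71 and 2.01 in mutants and at 0.20, -0.60 and 0.41 in wild types, and mutant pool 3 and wild-type pool 2 stand at opposite ends of all 5 skin rows.

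Pools of one genotype differed widely in skin genes as a group. The 21 periderm and barrier genes with a mean CPM of at least 5 lay on average 0.80, 0.51 and 1.63 log2 units from the wild-type mean in mutant pools 1, 2 and 3, against 0.02, -0.77 and 0.75 in wild-type pools 1, 2 and 3. Wild-type pool 3 thus lay above mutant pool 2. Mutant pool 3 was the highest mutant for 9 of the 10 keratins and for 27 of the 32 barrier genes tested, where it was the highest for 36.6% of all transcripts tested. Wild-type pool 2 was the lowest wild type for 9 of the 10 keratins and 26 of the 32 barrier genes, beside 29.7% of all transcripts. Wild-type pool 3 was the highest wild type for 7 of the 10 keratins and 27 of the 32 barrier genes, beside 34.6% of all transcripts. The exceptions among the keratins were cyt1l, krt92 and krt94. In wild types cyt1l therefore did not have the order of pools that cyt1, krt17, krt91, krt4, krt5, krt15 and krt8 had.

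Set against those 21 genes, a choice made after the values were seen, the keratins lay on either side of them. The log2 level of cyt1l above the barrier mean was 2.38, 2.36 and 2.28 in the mutant pools and 1.19, -0.19 and -1.01 in the wild-type pools, each as a difference from the wild-type mean. The mutant pools were nearly equal on this scale, and the wild types were spread over more than 2 log2 units. For cyt1 it was 1.14, 1.35 and 1.58 in mutants and 0.36, -0.04 and -0.32 in wild types. For krt17, krt91 and krt4 the mean differences of mutants from wild types were 0.90, 0.67 and 0.31, with no overlap between the groups. The separation was narrow for krt4, with the lowest mutant pool at 0.15 and the highest wild-type pool at 0.08. krt5 and krt15 had mean differences of 0.10 and -0.15 with overlapping groups, so they differed between the genotypes by about as much as the barrier genes did on average. krt8 and krt94 had -0.59 and -0.73, also with overlap. krt92 had -1.39, -1.78 and -0.84 in mutants and 0.17, 0.45 and -0.62 in wild types, with every mutant pool below every wild-type pool. No test was run on these differences between genes, and the share of all transcripts that separate on this scale was not computed. Since the keratins were selected with their values known, nothing is read from which groups were separate.

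**Figure D5:**
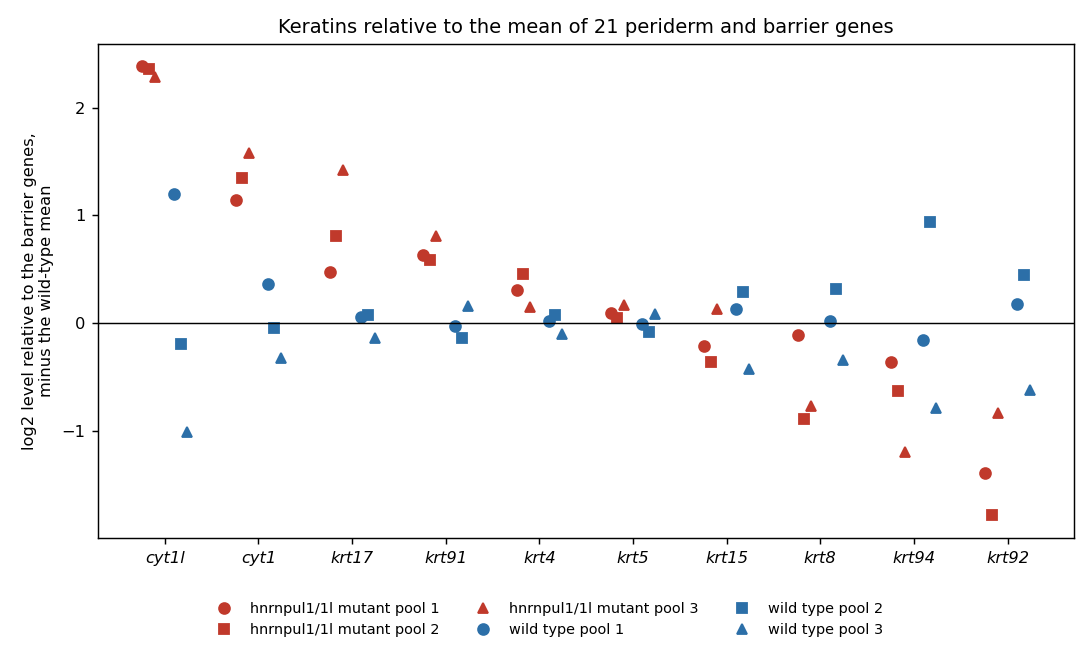
Log2(CPM + 0.5) of each keratin minus the mean of 21 periderm and barrier genes in the same pool, as the difference from the wild-type mean, with mutants left of wild types for each gene. cyt1l lies at 2.28 to 2.38 in mutants and -1.01 to 1.19 in wild types, krt5 lies between -0.08 and 0.17 in all 6 pools, and krt92 lies below the wild types in all mutant pools.

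Ratios to krt4 within each library need no scaling between libraries. The counts of cyt1l per count of krt4 were 0.212, 0.188 and 0.220 in mutants and 0.113, 0.0415 and 0.0268 in wild types. Those of cyt1 per count of krt4 were 0.197, 0.205 and 0.297 in mutants, against 0.140, 0.101 and 0.0947 in wild types. Both ratios were higher in every mutant pool. The ratio of krt17 was also higher in each, at 0.00945, 0.0107 and 0.0203 in mutants, against 0.00854, 0.00822 and 0.00819 in wild types. The ratio of krt91 overlapped, with means of 0.0759 in mutants and 0.0587 in wild types. The counts of krt5 per count of krt4 were 0.191, 0.167 and 0.223 in mutants and 0.217, 0.198 and 0.253 in wild types, which overlap. These keratins were selected with their values known, so nothing is read from which ratios were separate. The share of all transcripts that separate as a ratio to krt4 was not computed.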

How the data were processed

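RNA from 3 pools of hnrnpul1/1l mutants and 3 pools of wild types was sequenced paired-end from polyA RNA with a directional kit. The authors quantified the reads and deposited estimated counts (many of them fractional) for 15455 RefSeq transcripts per library, not scaled for depth or length. The submitters' processing notes name kallisto 0.42.4, bcl2fastq 2.20.0.422 and danRer10, without their roles, and the RefSeq release is not given in the sources used here. Counts were rounded to whole numbers. Symbols came from a RefSeq gene table of assembly GRCz12tu, which paired 14740 transcripts, and it was used for names and gene order only. Counts were tested with edgeR 4.0.16 in R 4.3.3 (filterByExpr, TMM, quasi-likelihood test, no covariate) with Benjamini-Hochberg adjustment over 13553 transcripts. The standard error is the log2 fold change divided by the square root of F. Of several transcripts of a gene, the one with the largest mean was used. Libraries held 40891309 to 62580215 counts. Nothing says whether pools shared parents, so p-values measure the spread between these pools. An exact permutation test of 3 against 3 cannot give a p below 0.1 and was not used.

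The members and the 8 gene lists were chosen with earlier results of these data known. The lists were basal keratinocyte and basement membrane, periderm and skin barrier, desmosome and plakin, ionocyte, mucous and secretory cell, notochord, intestine, and wound and inflammation genes. Named were hnrnpul1, the 10 keratins and other keratins with a mean CPM of at least 10. From the barrier, desmosome, basal, ionocyte and notochord lists the 3 genes with the largest absolute log2 fold change at a mean CPM of at least 5 were named. krt96, krt93, krt95, foxi3b and jupa were named after their values were seen. The fit was tested on simulated data. Alternatives were RLE size factors, total counts, DESeq2 1.42.0, limma-voom (limma 3.58.1), other filters, counts summed per gene, a replicate block, scaling without the keratins, and each library left out.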

Additional observations from a re-analysis of the deposited data

How the results depend on the processing

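edgeR called 0 transcripts under each setting except 1 without mutant replicate 3 (0 to 1 with each library left out), and DESeq2 called 202. At an unadjusted p below 0.05 the count was 1191, and 616 to 1721 with each library left out. With the replicate number as a block 0 were called and 1355 had an unadjusted p below 0.05. Whether the numbers pair the pools is not known. Same-numbered pools deviated from their group means with correlations of -0.16, 0.18 and 0.48. Mutant pools 1 and 2 correlated best with another number, while mutant pool 3 correlated best with wild-type pool 3. With 3 pools per genotype these correlations cannot settle it. The block changed no call. Of the 10 keratins 9 were above 0 under each setting that kept all libraries, and 9 or 10 with each library left out, where krt92 ranged between -0.92 and 0.30. The median of the 10 was 1.01 to 1.19 with all libraries and 0.74 to 1.58 with each left out, and the median of the 8 other keratins was 0.59 to 1.32. That of the barrier list was 0.75 to 0.92 with all libraries and 0.42 to 1.20 with each left out. Under total counts the median of all transcripts was -0.13, and those of the 10 keratins and of the barrier, desmosome and basal lists stayed above it, while that of the ionocyte list was -0.30. The intestine list moved to -0.028 under the replicate block, and to -0.53 to 0.16 with each library left out. The wound list moved to 0.35 under total counts, -0.24 under limma-voom, -0.27 at a mean CPM of at least 5, where 1 gene was left, and -0.11 under the replicate block, and to -0.59 to 0.57 with each library left out. The cause was not tested.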

Other observations

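The remaining gene lists were small and held no called gene in edgeR. Of 9 genes tested from the notochord list 8 had a positive log2 fold change, with a median of 0.18. At a mean CPM of at least 5 the largest differences were those of tbxta (1.20, standard error 0.51), matn1 (-0.48, 0.33) and cav3 (0.34, 0.31). Among all transcripts tested 49.1% were positive, a share to set beside each list here. The mucous and secretory list had 3 of 5 genes above 0, with a median of 0.06. Of 9 intestine genes 2 were positive, with a median of -0.47, and for 2 of them no mutant pool reached the wild-type pools, as for 9.08% of all transcripts. The wound and inflammation list had 4 of 6 genes above 0 and a median of 0.47, on low counts. Under an unadjusted p below 0.05, 1 gene of the notochord list, tbxta, was higher in mutants, as were 4.18% of all transcripts. The other 3 lists held none in either direction.

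Of the keratins that did not pass the filter, krt95 had 0 counts in every library, which allows up to 3 counts, or 0.0504 to 0.0804 CPM in mutant libraries and 0.0448 to 0.0563 CPM in wild-type libraries, for counting error only. krt93, which lies beside krt94, had 0.017, 0 and 0.168 CPM in mutants and 0, 0 and 0.0896 CPM in wild types.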
